A study of Mus musculus with 2 samples.

Results

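The cells described here were quiescent basal squamous cells of the mouse cervix that held no UMI of Igfbp5, a secreted protein that binds insulin-like growth factors. They were chosen by their own transcript counts, in droplets with at least 200 detected genes and at most 20% mitochondrial UMIs. A cell entered when it held at least 5 UMIs of the basal keratins Krt5 and Krt14 together and at least 2 of Col17a1, Itga6, Itgb4 and Trp63, and it had to hold few UMIs of the other programmes. The upper limits were 2 UMIs of the suprabasal genes Krt10 and Krtdap, 4 of the luminal keratins Krt8 and Krt18, 1 of the proliferation genes Mki67, Top2a, Birc5, Ube2c and Cenpf, and 0 of Igfbp5. The rule held for 2875 of 13981 cells, 854 of 4760 in the control library and 2021 of 9221 in the progesterone library. These were 17.9% (95% interval 16.9 to 19.1) and 21.9% (21.1 to 22.8) of the cells kept. Of the quiescent basal cells, 94.2% of 907 in the control and 79.9% of 2528 under progesterone held no Igfbp5 UMI. Because the 16 genes of the rule fixed the choice, their values are given as description only.

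The study profiled dissociated cervix, cut below the transition zone and freed of vagina, from ovariectomized C57BL6/129 females of 7 to 8 weeks with 10x Genomics droplet libraries. All mice had 2 weeks of recovery after surgery. Control mice were left untreated for the 15 days of the experiment and had no vehicle or empty pellet, while the progesterone (P4) mice first had estradiol (E2, 100 µg a day in corn oil under the skin on 2 days) and then a 25 mg pellet meant to release about 1 mg of P4 a day. Each group was 1 library from 9 pooled mice, so there was no replicate, no test between groups was possible, and treatment, E2 priming and library cannot be told apart. Ratios carry exact 95% intervals (conditional binomial for ratios of counts, Poisson for levels, Clopper-Pearson for shares of cells), and these cover counting error only. Levels are in CPM, the UMIs of a gene scaled to a fixed total over all UMIs of the pooled cells of a class. A gene was called higher or lower when pools differed at least 2-fold and it held at least 50 UMIs over both.

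Basal cells are the layer of a stratified epithelium that sits on the basement membrane. They hold to it by hemidesmosomes, built from integrin alpha6 beta4 and collagen XVII, and depend on the p63 transcription factor. In the cervix and vagina, estrogen drives their daughters to stratify and cornify, and progesterone is known to turn the genital epithelium towards mucus secretion. Notch ligands on basal cells are read by receptors of their neighbours as cells leave the layer.

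Of the 5 genes proposed as markers of these cells, Krt5 and Col17a1 belong to the rule, and Nrtn, Jag2 and Bcam lie outside it. The members were chosen with earlier results of these data known, so these 3 genes are no independent check of the label. Nrtn encodes neurturin, a neurotrophic ligand of the GDNF family. It lies on the minus strand at chr17:56751325-56757530 (GRCm38). Jag2, a Notch ligand, lies on the minus strand at chr12:112907819-112929776. Bcam, a laminin-binding surface glycoprotein, lies on the minus strand at chr7:19756131-19771016. Their promoters are printed because these 3 genes are the markers outside the rule and because the AP-2 factor gene Tfap2c differed between the libraries. Each window runs 5′ to 3′ from 250 bases before to 50 bases after the start that RefSeq gives on GRCm38.p6, at chr17:56757499-56757798, chr12:112929446-112929745 and chr7:19770483-19770782 in turn, and capitals mark the AP-2 motif GCCNNNGGC on either strand.
Nrtn promoter: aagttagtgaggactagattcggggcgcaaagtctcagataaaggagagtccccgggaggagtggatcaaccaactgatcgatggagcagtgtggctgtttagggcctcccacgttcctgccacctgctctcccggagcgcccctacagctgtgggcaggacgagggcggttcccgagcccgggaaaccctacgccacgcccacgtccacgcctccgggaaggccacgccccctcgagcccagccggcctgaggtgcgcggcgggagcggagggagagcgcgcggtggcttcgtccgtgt
Jag2 promoter: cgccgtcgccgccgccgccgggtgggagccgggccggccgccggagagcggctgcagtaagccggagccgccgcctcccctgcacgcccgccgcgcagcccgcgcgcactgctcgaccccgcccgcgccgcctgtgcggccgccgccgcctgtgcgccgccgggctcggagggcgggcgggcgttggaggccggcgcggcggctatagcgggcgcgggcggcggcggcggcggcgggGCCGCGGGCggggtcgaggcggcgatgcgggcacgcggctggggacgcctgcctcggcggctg
Bcam promoter: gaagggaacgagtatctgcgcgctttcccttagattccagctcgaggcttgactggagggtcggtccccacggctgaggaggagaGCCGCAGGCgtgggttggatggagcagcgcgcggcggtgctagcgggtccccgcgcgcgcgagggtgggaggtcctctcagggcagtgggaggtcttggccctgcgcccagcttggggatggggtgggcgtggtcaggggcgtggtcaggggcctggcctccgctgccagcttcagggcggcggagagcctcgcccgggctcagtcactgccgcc
The Jag2 and Bcam windows each hold 1 AP-2 match and the Nrtn window holds none. Over all 32851 promoter windows of this length, 16.6% hold at least 1. None of the 3 windows holds the AP-1 motif TGANTCA (7.81% of all windows) or the steroid receptor half-site TGTTCT (19.0%). GC content is 66.7% for Nrtn, 86.0% for Jag2 and 71.0% for Bcam. A match describes letters in the window and not a bound site.

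The Igfbp5-negative basal cells held far more Nrtn, Jag2 and Bcam RNA than the suprabasal cells of the same library, defined as cells with at least 10 UMIs of Krt10 and Krtdap (491 in the control, 328 under P4). Nrtn was at 130 CPM (119 to 142) in control basal cells and 403 CPM (390 to 416) in those under P4, against 29.1 and 91.5 CPM in suprabasal cells. Jag2 was at 75.5 and 115 CPM, against 13.2 and 9.45 CPM. Bcam was at 144 and 196 CPM, against 49.4 and 29.4 CPM. All 3 markers were thus above the suprabasal level in both libraries. In luminal cells, gated on Krt8 and Krt18, Jag2 was at 2.79 and 1.65 CPM and Bcam at 2.79 and 10.5 CPM. Droplets gated on neutrophil genes, whose own cells should lack these epithelial RNAs, held 36.9 and 36.2 CPM of Nrtn, 13.4 and 14.5 CPM of Jag2, and 10.1 and 7.23 CPM of Bcam. The basal levels lay above this background. The suprabasal level of Jag2 did not in either library, and that of Nrtn did not in the control.

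Per cell, the same order held after each cell was thinned to 2000 UMIs, which left out 127 control and 101 P4 members of fewer UMIs. Nrtn was then detected in 20.1% of 727 control basal cells and 50.4% of 1920 P4 basal cells, against 6.72% and 14.3% of suprabasal and 5.71% and 8.29% of luminal cells. Jag2 was detected in 13.2% and 21.6%, against 2.65% and 1.52% of suprabasal cells. The luminal share of Jag2 was 0 of 70 control cells and 0.218% under P4. For the share of 0, a floor of 3 cells in 70 is 4.29%, which is not the Clopper-Pearson limit. Bcam was found in 25.6% and 33.1% of basal cells, against 9.98% and 5.18% of suprabasal cells. Without thinning the basal shares were 28.8% and 71.5% for Nrtn, 24.7% and 38.0% for Jag2, and 38.1% and 55.8% for Bcam. Median depth was 4060.5 UMIs per control basal cell and 4317 under P4, and suprabasal cells held 9118 and 8883.

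**Figure D1:**
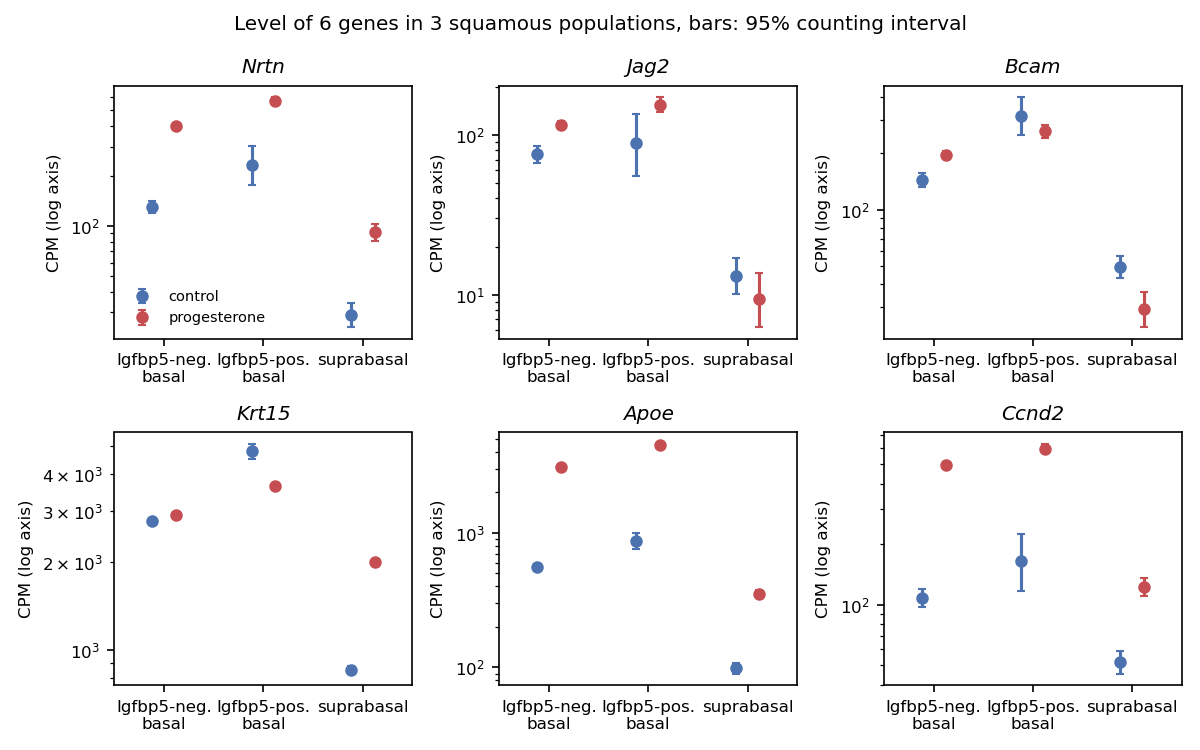
Levels of Nrtn, Jag2, Bcam, Krt15, Apoe and Ccnd2 (CPM, logarithmic axes) in Igfbp5-negative basal, Igfbp5-positive basal and suprabasal cells of the control (blue) and progesterone (red) libraries, 1 library a group, with 95% counting intervals as bars. Nrtn in Igfbp5-negative basal cells sits at 130 CPM in the control and 403 CPM under progesterone, above the suprabasal values of 29.1 and 91.5 CPM.

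For some control cells the data went against the label. Of the 854 control cells, 160 (18.7%) held at least 10 UMIs of Sprr2f, a small proline-rich protein of cornifying epithelium, 187 held 1 to 9 and 507 held none. Across these classes, from none to at least 10, Jag2 was at 116, 67.2 and 7.93 CPM. Bcam was at 186, 167 and 46.6 CPM and Nrtn at 172, 144 and 40.6 CPM. The 160 Sprr2f-rich cells therefore had Jag2 and Bcam levels no higher than those of suprabasal cells. They were also low in rule genes, with Col17a1 at 53.5 CPM against 313 CPM in cells without Sprr2f and Krt14 at 6894 against 12630 CPM. The iron-binding defence proteins Lcn2 and Ltf were high in them, at 2535 and 2807 CPM, against 234 and 145 CPM. Their median depth was 6253.5 UMIs, against 3517 in cells without Sprr2f. Under P4 a smaller class low in Jag2 and Bcam was marked by Krt13, a keratin of non-cornified suprabasal layers. There, 130 cells (6.43%) with at least 5 Krt13 UMIs held 22.2 CPM of Jag2 and 39.3 CPM of Bcam, against 133 and 227 CPM in the 1526 cells without Krt13. Col17a1 was lower too, at 253 against 427 CPM. Unlike in the control class, Krt14 was higher, at 7658 against 6168 CPM, and Lcn2 was at 52.3 against 26.3 CPM. Both splits were chosen after their values were seen. Between the libraries, values of some genes are also given without these cells. Gene values printed for the other comparisons keep them.

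The limits of the rule passed cells close to them. At the lower limit of 2 UMIs of the adhesion genes and Trp63 stood 297 control cells (34.8%) and 293 P4 cells (14.5%). At the upper limit of 2 UMIs of Krt10 and Krtdap stood 90 and 94 cells, while 572 and 1626 held none. At the limit of 4 Krt8 and Krt18 UMIs stood 26 and 247 cells, and 82 and 129 cells held the 1 proliferation UMI allowed. Just outside the limit on Igfbp5, 51 control and 411 P4 cells held 1 or 2 UMIs. The libraries shared 19 barcodes among all those deposited, and 3 control and 2 P4 members carried one of these.

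RNA of other cell types was present. Erythrocyte, dendritic and fibroblast markers lay mostly in few droplets in both libraries, and neutrophil markers did so under P4. Luminal markers did not. Summed neutrophil markers were at 727 CPM in control and 195 CPM in P4 members, with at least 5 such UMIs in 99 and 24 cells. Erythrocyte genes summed to 2141 and 6716 CPM, with at least 5 UMIs in 12 and 37 cells. The 10 luminal markers, all detected, summed to 1571 and 887 CPM, with at least 5 UMIs in 404 (47.3%) and 701 (34.7%) cells. Luminal secretory markers summed to 21.0 and 255 CPM, with Clca1 and Gp2 at 0 in the control. Dendritic cell markers summed to 51.0 and 216 CPM, with Cd207 at 0 in both. Fibroblast markers summed to 3.51 and 50.3 CPM, smooth muscle markers to 5.40 and 7.64 CPM, and endothelial markers to 5.40 and 4.63 CPM, with Cdh5 and Emcn at 0 in both. Of the T and NK markers, 1 of 6 was detected in the control and 4 of 6 under P4.

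Between the libraries, P4 basal cells had more RNA of genes such as Bcat1, Sv2b, Cldn10 and Apoe, and far less of the Sprr2 genes, Krt16 and Lcn2. Of the gene lists, the suprabasal and cornified list had 12 of 15 genes lower and the cytokine and defence list 11 of 17, while 5 of 12 neurotrophic and 5 of 12 steroid genes were higher. Of 9872 genes with at least 50 UMIs, 582 (5.9%) were at least 2-fold higher under P4 and 476 (4.82%) at least 2-fold lower, and the median log2 ratio of all genes was -0.01. Higher calls made up 55.0% of these. When mitochondrial, ribosomal protein and the 20 most abundant genes were left out of the totals, 807 were higher and 352 lower, a higher share of 69.6%, with the median of all genes at 0.14. The direction of single genes near this shift therefore rests on the scaling.

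Among the genes with the widest excess in P4 over control cells, Bcat1, a cytosolic branched-chain aminotransferase, was at 21.0 CPM in the control (78 UMIs) and 216 CPM under P4 (2010 UMIs), 10.3-fold higher (8.20 to 13.1). Sv2b, a synaptic vesicle glycoprotein, was at 2.70 and 86.8 CPM, 32.2-fold higher (17.4 to 67.3). Cldn10, an ion-pore claudin, was at 1.62 and 65.5 CPM, 40.4-fold higher (18.5 to 111). Each was well above its level in neutrophil-gated droplets of the P4 library, where Bcat1 was at 39.8 CPM, Sv2b at 3.62 CPM and Cldn10 at 0 UMIs. The urea channel gene Slc14a1 went from 2.97 to 61.7 CPM, the secreted BMP antagonist gene Nbl1 from 13.5 to 114 CPM, the retinol-oxidising Adh7 from 13.8 to 116 CPM and the monooxygenase gene Fmo2 from 41.8 to 284 CPM. Neutrophil-gated droplets of the P4 library held 10.9, 3.62, 18.1 and 39.8 CPM of these. Apoe, the apolipoprotein of lipid transport, was abundant in both libraries and stood at 560 and 3101 CPM, 5.53-fold higher (5.29 to 5.79). Muc5b, a gel-forming mucin, and Tff1, a trefoil peptide, met the rule for naming but lay at the background. Muc5b was at 1.89 and 95.3 CPM and Tff1 at 4.32 and 62.6 CPM, while P4 neutrophil-gated droplets held 231 and 217 CPM. No expression of either in basal cells is read from these values.

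The genes furthest below the control were those of the Sprr2 cluster and its companions in cornifying epithelium. Sprr2f was at 2541 CPM (9417 UMIs) in control cells and 51.7 CPM (480 UMIs) under P4, 49.2-fold lower. Sprr2d was at 752 and 3.88 CPM, 194-fold lower. Sprr2b had 465 UMIs in the control and 0 under P4, 388-fold lower against a floor of 3 counts over the pool, with an interval bound of 315-fold. Its control UMIs lay in 45 of 854 cells, 74.2% of them in 8 cells. Krt16, a keratin of stressed epithelium, was at 346 and 3.12 CPM, 111-fold lower, with 53.0% of its control UMIs in 8 cells. Sprr2a3 was at 242 and 7.32 CPM, and the protease inhibitor gene Spink12 had 1003 and 6 UMIs. Of the secreted defence genes, Lcn2 was at 956 and 30.1 CPM, the neutrophil chemokine gene Cxcl5 at 243 and 7.43 CPM, and the interleukin-36 gene Il1f9 at 78.8 and 1.94 CPM. Ndufa4l2, a hypoxia-linked subunit of the respiratory chain, was at 113 and 0.969 CPM. Control neutrophil-gated droplets held more of each of these than control basal cells, with Sprr2f at 12353, Lcn2 at 12919, Cxcl5 at 5089 and Krt16 at 757 CPM, except Ndufa4l2 at 16.8 CPM. The share of these differences that came from RNA outside the cells was not tested.

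How much of these low calls sat in the Sprr2f-rich control cells differed by gene. Without members of at least 10 Sprr2f or at least 5 Krt13 UMIs, 616 control and 1884 P4 cells were left, and 525 genes were higher and 366 lower. Sprr2f itself is not compared there, since it chose the cells. The log2 ratio of Sprr2d was -4.66 against -7.60, and that of Lcn2 -3.45 against -4.99. Krt16 was not concentrated in those cells and was at -7.38 against -6.79. With these cells left out, the P4 excess of Jag2 and Bcam over the control was close to 0, at 0.13 and 0.06, against 0.61 and 0.45 with them, while that of Nrtn was 1.28 against 1.63. Nrtn was 3.10-fold higher (2.82 to 3.41), Jag2 1.53-fold (1.34 to 1.75) and Bcam 1.37-fold (1.24 to 1.51) with all members. Of the markers outside the rule, only Nrtn passed 2-fold with all members. It stayed past 2-fold in every alternative run, with log2 ratios from 1.28 to 1.78.

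**Figure D2:**
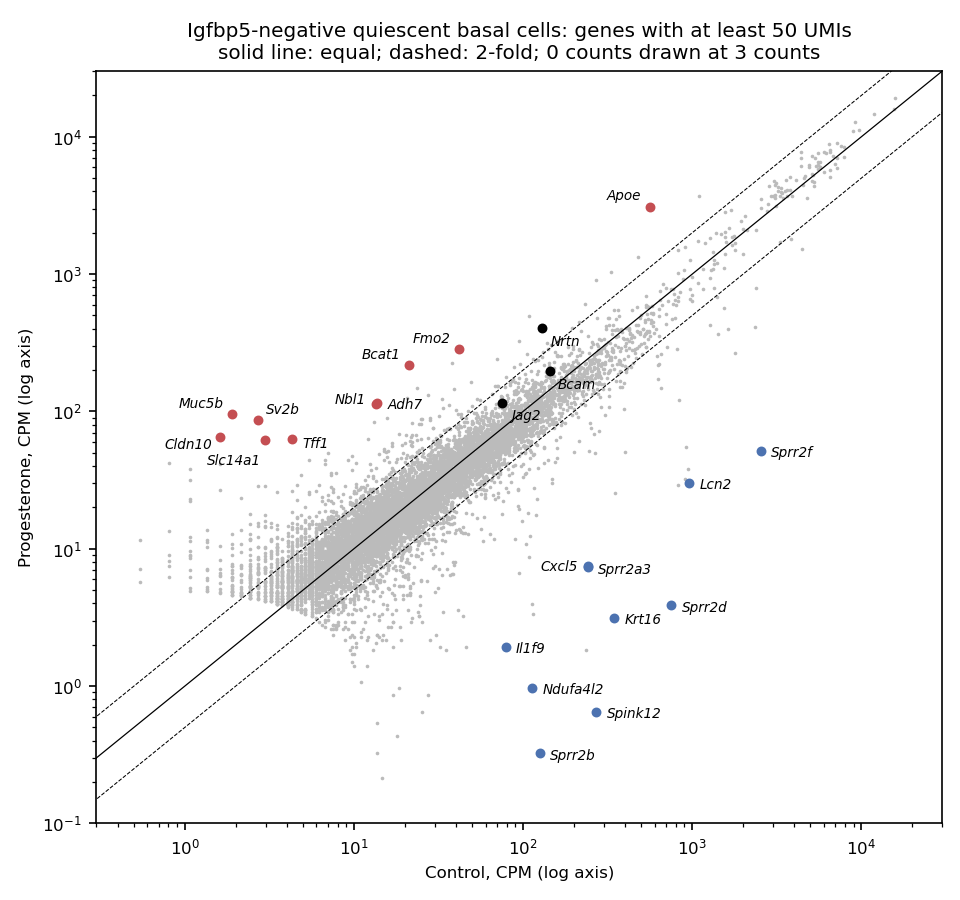
Level of every gene with at least 50 UMIs (grey points) in control (x axis) and progesterone (y axis) Igfbp5-negative basal cells, both in CPM on logarithmic axes, 1 library a group; coloured points are the genes named by rule, black points the markers, the solid line marks equal levels and dashed lines 2-fold. Sprr2f lies at 2541 CPM in the control and 51.7 CPM under progesterone, and Bcat1 at 21.0 and 216 CPM.

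The gene lists held 8 to 25 genes each, and counts are over the members outside the rule that held at least 50 UMIs. Basal identity genes included calls in both directions, and adhesion genes held none. Of 12 basal keratin and transcription factor genes outside the rule with enough UMIs, 3 were called higher and 1 lower, with a median log2 ratio of 0.08. The higher ones were the AP-2 factor gene Tfap2c (9.44 and 22.0 CPM), Foxc1 (21.9 and 46.8 CPM) and Irx1 (4.59 and 29.3 CPM). Id1, an inhibitor of helix-loop-helix factors, was lower, at 159 and 54.5 CPM. Krt15, a keratin of resting basal cells, stood at 2764 and 2900 CPM. Among 17 genes of basement membrane adhesion none passed 2-fold in either direction, and the median was 0.13. Within that list the laminin chain gene Lamb1 was at 18.6 and 35.5 CPM (log2 0.93), Dst, which links hemidesmosomes to keratin, at 346 and 548 CPM, and the collagen receptor gene Itga2 at 51.5 and 27.2 CPM (-0.92).

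Of 12 neurotrophic genes tested, 5 were higher under P4 and none lower, with a median log2 ratio of 0.36. Beside Nrtn these were Ntrk2, Ntf3, Sema3c and Nrg1. Ntrk2, a receptor for BDNF and neurotrophin 4, was at 20.5 and 126 CPM, 6.14-fold higher. The ligand gene Ntf3 had 4 UMIs in the control and 90 under P4 (1.08 and 9.69 CPM). The guidance factor gene Sema3c was at 36.4 and 111 CPM, and the neuregulin gene Nrg1 at 7.29 and 22.3 CPM. Receptors that bind neurturin were close to absent, with Gfra1 at 1 UMI in each library, Gfra2 at 0 in both, and its partner Ret at 0 and 1 UMI. The ligand gene was thus measured in these cells without its receptor genes at this depth.

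Notch genes went both ways, with 2 of 15 higher and 2 lower and a median of 0.50 that was -0.21 over genes with at least 200 UMIs. Dll1, a second ligand, was at 7.02 and 16.0 CPM (log2 1.19), and Hey1, a target, at 5.94 and 15.2 CPM (1.35). Without the Sprr2f-rich and Krt13-rich cells Dll1 was at 0.67, and with Krt10 and Krtdap at 0 Hey1 was at 0.95. The receptor Notch1 was at 90.9 and 134 CPM and the target Hes1 at 69.3 and 113 CPM, both short of 2-fold. Rfng, a glycosyltransferase that modifies Notch, was at 28.9 and 11.8 CPM and the sheddase gene Adam10 at 96.6 and 39.9 CPM. Adam10 lost its call without the Sprr2f-rich and Krt13-rich cells (-0.80 against -1.27).

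In the IGF axis, to which Igfbp5 itself belongs, 3 of 9 genes were higher and none lower (median 0.64). The insulin receptor substrate genes Irs1 and Irs2 were at 7.29 and 18.8 CPM and at 1.62 and 6.67 CPM. Igfbp6 was at 2.16 and 4.74 CPM, a call that ended when each cell's CPM was averaged (log2 0.09 against 1.13). The receptor gene Igf1r was at 48.3 and 75.6 CPM and Igfbp2 at 39.9 and 60.6 CPM, both under 2-fold.

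Of 12 steroid receptor and response genes tested, 5 were called higher under P4, none lower and 7 neither. The median log2 ratio was 0.96, and it stayed between 0.71 and 1.11 in 11 alternatives. The progesterone receptor gene Pgr was at 22.1 and 56.1 CPM (log2 1.34). It fell short of 2-fold without the Sprr2f-rich and Krt13-rich cells (0.97) and when the rule was applied to thinned cells (0.66). Tsc22d3, the glucocorticoid-induced leucine zipper gene that progesterone can also induce, was at 5.40 and 26.1 CPM (2.27). Greb1, an estrogen-induced gene, was at 18.1 and 44.9 CPM and Fkbp5, a chaperone of steroid receptors, at 2.97 and 7.00 CPM, with log2 ratios of 1.31 and 1.24 that were 0.84 and 0.92 on thinned cells. The estrogen receptor gene Esr1 was at 104 and 172 CPM and the glucocorticoid receptor gene Nr3c1 at 41.0 and 80.6 CPM, neither past 2-fold.

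Genes of G1 and cell cycle exit were split. Of 19, 4 were higher and 2 lower, with a median of 0.14. Ccnd2, a D cyclin, was at 108 and 494 CPM, 4.57-fold higher (4.13 to 5.07). The CDK inhibitor gene Cdkn1c was at 2.70 and 15.4 CPM, the thioredoxin inhibitor gene Txnip at 138 and 317 CPM, and the pocket protein gene Rbl2 at 7.82 and 16.5 CPM. Rbl2 and Txnip each lost the call in at least 1 alternative, at log2 0.93 and 0.95. The p53 target Cdkn1a was lower, at 75.0 and 17.9 CPM. Cdkn2b was at 14.6 and 4.84 CPM (log2 -1.59), but turned to 0.33 when the rule was applied to thinned cells. None of 16 DNA replication and mitosis genes outside the rule passed 2-fold (median -0.21), and 3 of 17 immediate early and heat shock genes were lower (Egr1, Ier3 and Hspb1) with none higher.

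The suprabasal and cornified list was the one with the lowest median. Of 15 genes, 12 were lower under P4 and none higher (median log2 ratio -1.99, between -3.42 and -1.54 in 11 alternatives). Krt6a, a keratin of activated epithelium, was at 835 and 121 CPM, and its relative Krt6b at 113 and 3.98 CPM. Sprr1a, a cornified envelope precursor, was at 925 and 55.0 CPM, the protease inhibitor gene Spink5 at 400 and 50.5 CPM, and Dmkn, a secreted keratinocyte protein, at 627 and 172 CPM. Krt13 was at 808 and 286 CPM (log2 -1.50), and turned to 0.34 when the rule was applied to thinned cells. Krt1 differed little, at 6.48 and 6.03 CPM. Cytokine and epithelial defence genes followed, with 11 of 17 lower and 1 higher (median -1.68). The antimicrobial gene Ltf was at 944 and 38.3 CPM, the neutrophil chemokine gene Cxcl2 at 45.9 and 1.94 CPM, and Il1b at 63.9 and 12.8 CPM. The alarmin gene Il33 stood at 303 and 338 CPM. The antiprotease gene Wfdc2 was the one called higher, at 270 and 911 CPM (3.37-fold). In P4 neutrophil-gated droplets Wfdc2 was at 286 CPM, and in control ones at 1498 CPM. S100a8, one of the lower genes of this list and also a neutrophil marker here, was at 252 CPM in control and 75.3 CPM in P4 members. The part of neutrophil RNA in the result was not tested.

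Growth factor and Wnt genes were called mostly on the high side. Of 17 growth factor genes, 3 were higher and none lower, namely Fgfr1 (4.86 and 14.5 CPM), Tgfb3 (11.6 and 31.5 CPM) and Bmp4 (2.43 and 18.0 CPM). Of 16 Wnt genes, 4 were higher and 1 lower. The ligand gene Wnt6 was at 2.70 and 14.6 CPM and Wnt7b at 14.8 and 3.98 CPM, while Wnt4, the most counted Wnt ligand here, was at 260 and 226 CPM. The receptor gene Lgr6 and the secreted antagonist genes Dkk3 and Sfrp1 were higher too, and each of these 3 lost the call in at least 1 alternative. Of 4 hyaluronan genes, the synthase gene Has3 was lower, at 13.0 and 4.95 CPM.

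**Figure D3:**
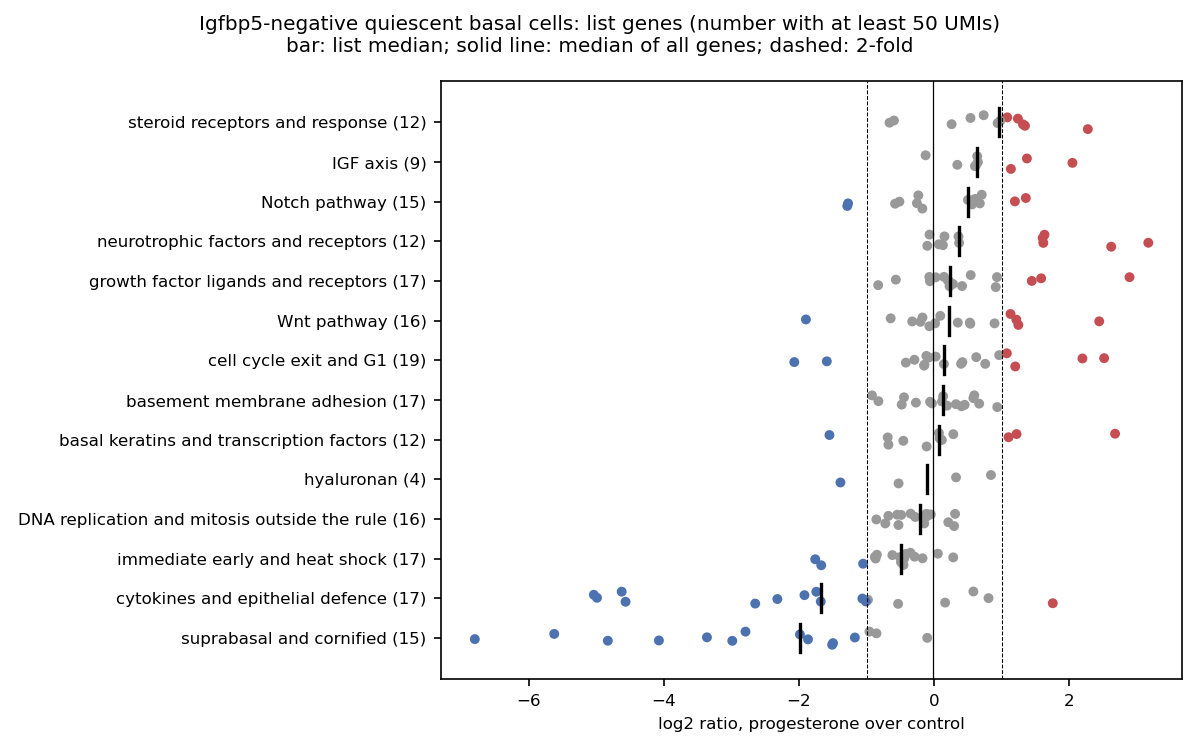
Log2 ratio of progesterone over control in Igfbp5-negative basal cells for each gene of 14 lists with at least 50 UMIs (1 point a gene, number of genes in brackets); bars are list medians, the solid line is the median of all genes and dashed lines mark 2-fold. The suprabasal and cornified list has the lowest median, -1.99, and the steroid list the highest, 0.96.

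Suprabasal cells of the same libraries gave values for the same genes, and share library and mice with the basal cells. In suprabasal cells, 838 of 8147 genes (10.3%) were higher under P4 and 445 (5.46%) lower. Nrtn had a log2 ratio of 1.65 there against 1.63 in basal cells, and Bcat1 3.31 against 3.37. The control suprabasal level of Nrtn was not above that in neutrophil-gated droplets. Apoe was at 1.83 against 2.47 and Ccnd2 at 1.24 against 2.19. Krt16 was at -6.55 against -6.79, and Sprr2f at -5.05 against -5.62. The direction of each of these 6 genes was therefore the same in the layer above, and the differences between layers were not tested.

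Against suprabasal cells of their own library, the basal cells held more RNA of basement membrane adhesion genes in both libraries, with 9 and 10 of 17 called higher and none lower. In the control, 956 of 8532 genes (11.2%) were higher in basal cells and 308 (3.61%) lower. Under P4, 803 of 9728 (8.25%) were higher and 368 (3.78%) lower. Of the higher calls, 270 were shared, 28.2% of the control calls and 33.6% of the P4 calls. Of the lower calls, 145 were shared, 47.1% and 39.4%. Median log2 ratios of all genes were 0.26 and 0.06.

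In control cells the named higher genes were led by Plpp3, a lipid phosphatase (132 against 18.0 CPM, 7.32-fold), and Dhrs3, a retinal reductase (232 against 32.9 CPM, 7.06-fold). Jag2 was 5.73-fold higher (4.35 to 7.66), Itga2 5.73-fold, and the membrane channel genes Tmem176b and Tmem176a 5.83- and 5.50-fold. Under P4, Jag2 was 12.2-fold higher (8.39 to 18.4) and Bcam 6.68-fold (5.38 to 8.38). The matrix genes Thbs1 (75.1 against 5.74 CPM) and Sparc (130 against 11.8 CPM) were 13.1- and 11.0-fold higher, and the T-cadherin gene Cdh13 10.0-fold. Lamb3, a chain of laminin-332, the main ligand of hemidesmosomes, was at 60.0 against 6.41 CPM. Apoe was higher in basal cells of both libraries, 5.67-fold in the control and 8.82-fold under P4. The basement membrane list, counted outside the rule, had medians of 1.01 and 1.58, beside 0.26 and 0.06 over all genes. The neurotrophic list had 5 of 8 and 6 of 12 genes higher and none lower, and the Wnt list 7 of 12 and 7 of 15. In the Notch list the ligand Jag2 was the 1 higher call in the control, and Jag2, Dll1 and Numbl the 3 under P4. Nrarp, a Notch target, was lower in basal cells of both libraries.

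On the low side stood keratins and desmosomal genes of upper layers. Krt16 was 32.5-fold lower in control basal cells and 38.5-fold lower under P4, and Krt6b 47.4- and 35.7-fold lower. In the control the metallothionein gene Mt4 was at 2.70 against 272 CPM, and the desmogleins Dsg1a and Dsg1b were 46.0- and 23.6-fold lower. Under P4, Krt13 was at 286 against 3040 CPM and Krt6a at 121 against 2110 CPM. The replication histone genes Hist1h1b and Hist1h2ae were 34.0- and 10.3-fold lower there. The rule limited proliferation RNA in the basal class and not in the suprabasal class. Every one of the 40 named calls against suprabasal cells stayed past 2-fold in the same direction in the 9 alternatives run on them.

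**Figure D4:**
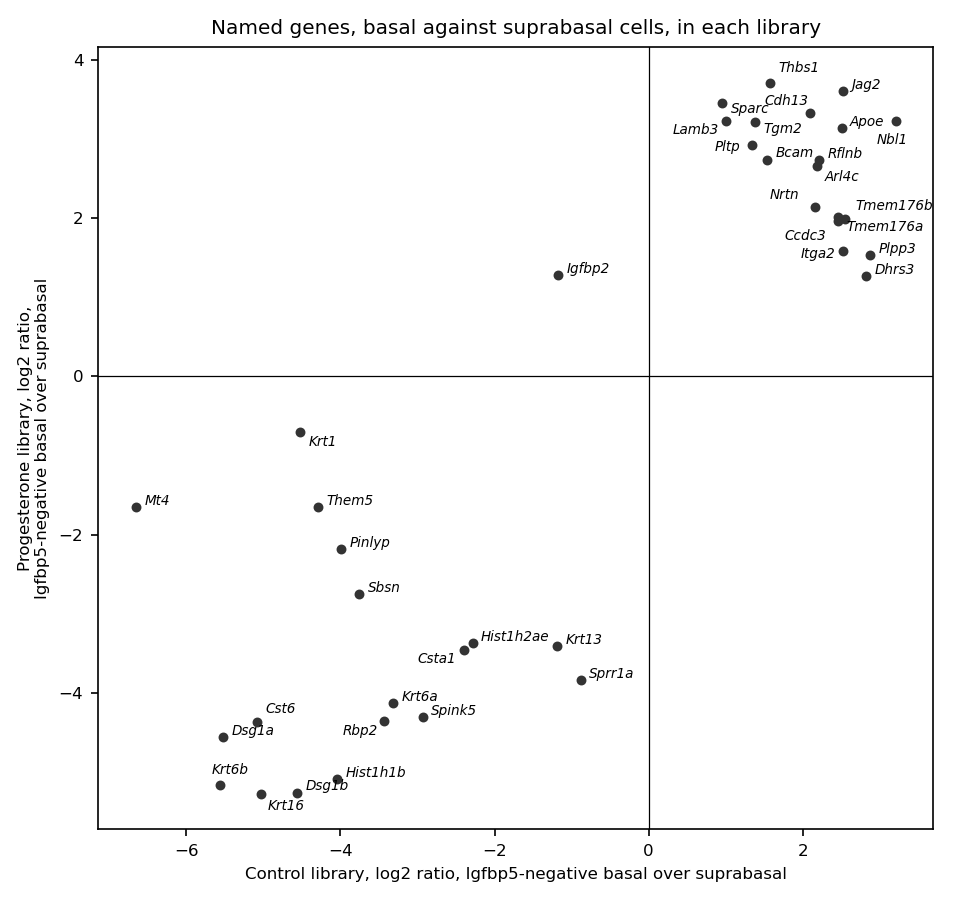
Log2 ratio of Igfbp5-negative basal over suprabasal cells in the control (x axis) and progesterone (y axis) libraries for the named genes and markers, 1 point a gene. Jag2 lies at 2.52 and 3.61 and Krt16 at -5.02 and -5.27, and Igfbp2 lies on opposite sides of 0, at -1.18 and 1.28.

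Within the quiescent basal gate, Igfbp5-negative cells under P4 held more suprabasal keratin RNA than their Igfbp5-positive neighbours and somewhat less RNA of several basal genes. Against the 96 P4 cells with at least 3 Igfbp5 UMIs, 648 of 9304 genes (6.96%) were higher in the negative cells and 210 (2.26%) lower. Those 96 cells held 475877 UMIs, against 9288528 in the negative cells. A gene near the UMI minimum has few counts in so small a pool and can pass 2-fold by counting error. Both counts of calls were smaller with a higher UMI minimum per gene, as given with the other processing alternatives. Against all 507 P4 cells with any Igfbp5 UMI, a comparison added after the data were seen, 122 of 9660 (1.26%) were higher and 48 (0.497%) lower. Krt6a was 8.20-fold higher in the negative cells against the first class and 10.6-fold against the second, and Krt13 5.05- and 4.94-fold. The 130 Krt13-rich P4 cells described above belong to the negative class, and the Igfbp5-positive cells were not split in this way. Those 130 cells held 2074 of the 2661 Krt13 UMIs and 656 of the 1120 Krt6a UMIs of the negative class. Dmkn was 5.45- and 3.90-fold higher. Of 9 suprabasal and cornified genes counted, 6 were higher in the negative cells against either class and none lower. Haemoglobin genes met the naming rule too, with Hbb-bs 111-fold higher, but 92.7% of the Hbb-bs UMIs of P4 members lay in 20 cells, and its log2 ratio was 0.38 without members holding other cells' RNA, a filter that uses haemoglobin UMIs.

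Lower genes in the Igfbp5-negative cells differed by less than 2-fold when named from the first class. Nrtn was 1.53-fold lower than in cells with at least 3 Igfbp5 UMIs, Apoe 1.57-fold, Bcat1 1.71-fold and the signalling subunit gene Pik3r1 1.79-fold. Across 0, 1 to 2 and at least 3 Igfbp5 UMIs, Nrtn was at 403, 553 and 616 CPM, Jag2 at 115, 152 and 166 CPM, and Bcam at 196, 259 and 275 CPM. All 3 markers were thus lowest in the negative class. Against the second class, Dlk2, a Notch ligand relative, was 2.03-fold lower (49.1 against 99.5 CPM) and the transglutaminase gene Tgm2 1.82-fold. Median depth was 4317 UMIs in the negative and 4476 in the positive P4 cells.

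In the control, 2 cells held at least 3 Igfbp5 UMIs, and no comparison with them was made. Against the 53 control cells with any Igfbp5 UMI, 532 of 6691 genes (7.95%) were higher in the negative cells and 184 (2.75%) lower. Those 53 cells held 236266 UMIs, against 3706197 in the negative cells, so genes of few UMIs can pass 2-fold here by counting error. Counts with a higher UMI minimum are not given for this comparison. Ltf was 7.19-fold and Sprr2f 4.80-fold higher in the negative cells, while Krt15 was 1.74-fold and Apoe 1.56-fold lower. The 160 Sprr2f-rich cells described above belong to the negative class, and the Igfbp5-positive cells were not split in this way. Those 160 cells held 8875 of the 9417 Sprr2f UMIs and 2833 of the 3498 Ltf UMIs of the negative class. In negative cells without Sprr2f, Ltf was at 145 CPM and Apoe at 851 CPM, against 131 and 876 CPM in the Igfbp5-positive cells. Krt15 there was at 3231 against 4800 CPM. Marker levels in those 53 cells were 233 CPM for Nrtn, 88.9 CPM for Jag2 and 317 CPM for Bcam, against 130, 75.5 and 144 CPM in the negative cells. In negative cells without Sprr2f they were 172, 116 and 186 CPM. Jag2 had few counts in the small pool, so no order is read for it.

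**Figure D5:**
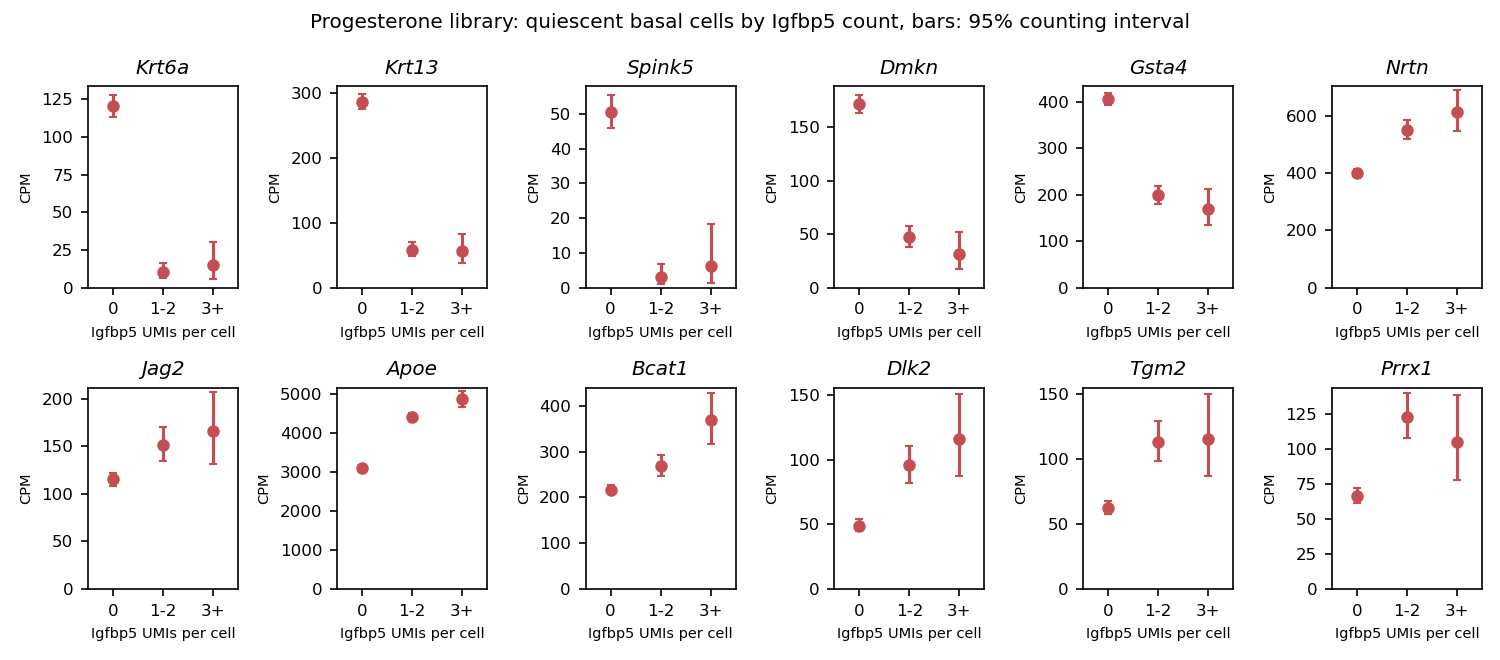
Levels of 12 markers and named genes (CPM, linear axes from 0) in quiescent basal cells of the progesterone library with 0, 1 to 2 or at least 3 Igfbp5 UMIs, with 95% counting intervals as bars. Nrtn is at 403 CPM in cells without Igfbp5 UMIs and at 616 CPM in those with at least 3, and Krt6a, Krt13, Spink5 and Dmkn are highest in the negative class.

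Among themselves, the cells of each library varied most in a few gene groups. Over genes thinned to 2000 UMIs per cell, the median ratio of variance to mean across cells was 1.04 in the control and 1.03 under P4, near the value of 1 that counting alone gives. Haemoglobin genes stood highest in both libraries, with 98.4% of control Hbb-bs UMIs in 8 cells. Next in the control came Sprr2f at 20.1, Krt16 at 18.1 and Ltf at 18.1. The 85 control cells richest in each gene held 78.5% of its UMIs for Sprr2f and 91.9% for Krt16, against 46.2% for Apoe and 33.1% for Krt15. In pooled control cells, Krt16 was at 493 CPM where Sprr2f was absent and 111 CPM where it had at least 10 UMIs. With 53.0% of control Krt16 UMIs in 8 cells, these levels do not show how far both genes shared cells. Under P4 the neutrophil genes S100a9 and S100a8 followed at 20.5 and 14.3, then Cd74 at 13.0, Malat1 at 10.8 and Krt13 at 7.33. The P4 cells rich in Krt13 also held more Krt6a, at 858 CPM against 20.5 CPM in cells without Krt13, and less Apoe, at 514 against 3577 CPM.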

How the data were processed

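Data of 2 droplet libraries were used as deposited: whole-number UMI counts per gene and cell barcode in filtered matrices, which the authors made with Cell Ranger 3.0.2 on mm10, per the submitters' processing notes. No filter beyond that is given in the sources used here. Droplets under 200 detected genes or above 20% mitochondrial UMIs were dropped. The rule was applied to raw counts, and counts were summed per class and library and divided by the class total (CPM). No doublets were removed; Scrublet (scanpy 1.11.5, expected rate 0.8% per 1000 cells) gave an alternative. Luminal-gated cells held at least 10 UMIs of Krt8 and Krt18 and at most 4 of Krt5 and Krt14. Neutrophil-gated droplets held at least 50 UMIs of S100a8 and S100a9. They also held at most 4 UMIs of Krt5, Krt14, Krt8 and Krt18 together, and no UMI of C1qa, C1qb or C1qc. With 1 library a group no test was run; the call is a 2-fold difference. Genes were named as the 10 highest and 10 lowest by the interval bound nearest to 1, with at least 100 UMIs and 50 CPM in the higher pool, without mitochondrial, ribosomal protein, unnamed and rule genes; markers, list genes and the 10 genes of widest spread were added. Splits by Sprr2f and Krt13, and a few roles named beside them, were chosen after values were seen. The members and lists were chosen with earlier results of these data known. Cell types were checked against 13 marker lists. Of 31053 gene IDs, 30934 matched GENCODE. The procedure was tested on simulated data. Python 3.11.15, numpy 2.4.6, scipy 1.17.1, pandas 2.3.3 and matplotlib 3.10.9 were used. The matrices held 21658684 control and 44811069 P4 UMIs, of which the members held 3706197 and 9288528. Alternatives changed the scaling, gene and cell minimums, doublets, thinning and the limits of the rule. The value of 1 list gene is not reported here.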

Additional observations from a re-analysis of the deposited data

Results flagged for a closer look

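For 2 genes among those named or listed, the ratio of Igfbp5-negative basal to suprabasal cells passed 2-fold in opposite directions in the libraries, and the difference was not tested because each group is 1 library. Igfbp2, a binding protein of insulin-like growth factors, had a log2 ratio of -1.18 in the control (39.9 CPM in basal against 90.2 CPM in suprabasal cells) and 1.28 under progesterone (60.6 against 25.0 CPM). Dcn, a fibroblast proteoglycan, had a log2 ratio of -2.54 in the control, from 6 UMIs in the basal cells, and 2.77 under progesterone, from 386 UMIs of which 94.3% lay in 20 cells.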

How the results depend on the processing

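No paired analysis was possible because each group has 1 library. Leaving mitochondrial, ribosomal protein and the 20 most abundant genes out of the totals gave a median of all genes of 0.14 and of immediate early genes of -0.34. With at least 200 UMIs per gene, higher and lower calls were 229 and 217 for P4 against control, 226 and 162 against suprabasal cells in the control, 288 and 169 under P4, and 134 and 18 against Igfbp5-positive cells. With at least 10 UMIs they were 1151 and 931, 1993 and 551, 1494 and 702, and 1420 lower in the last. In that last comparison, genes with 0 UMIs in the small Igfbp5-positive pool were set at the floor of 3 counts. At this minimum the floor alone can make such a gene a lower call, so the 1420 is not read as a result. Against any Igfbp5 UMI they were 122 and 48. The rule on cells thinned to 2000 UMIs gave shares of 19.5% and 26.0% of cells and 89.3% of P4 quiescent basal cells, medians of -1.07 for DNA replication and -0.30 for immediate early genes, and 1488 and 1221 higher calls against suprabasal cells. Signs turned there for Cdkn2b (0.33) and Krt13 (0.34) between libraries, and for Bcam (-0.09), which had not passed 2-fold. At most 10% mitochondrial UMIs with at least 500 genes gave shares of 21.4% and 25.0%, and 77.8% of P4 quiescent basal cells. Requiring 2000 UMIs gave 23.2% and 27.0%, and Krt10 and Krtdap at 0 gave 12.0% and 17.6%. Alternatives chosen after seeing the data left out members with RNA of other cell types (15.6% and 20.03% of cells, 81.7% and 73.1% of quiescent basal cells, and Hbb-bt turned to -0.53 against Igfbp5-positive cells) or Sprr2f-rich and Krt13-rich members (12.9% and 20.4%, 67.9% and 74.5%). Shares of cells with a UMI, control then P4, were 28.8% and 71.5% for Nrtn, 24.7% and 38.0% for Jag2 and 38.1% and 55.8% for Bcam without thinning. Thinned to 4000 UMIs they were 70.0% for Nrtn under P4, 19.1% and 32.7% for Jag2 and 33.6% and 47.1% for Bcam. Of 2435 single-gene values, 2036 moved by less than their interval, 396 moved by more, and 3 that had passed 2-fold changed sign; of 295 others, 243 did not move and 52 did. Of 79 named or list genes called between libraries, 58 stayed past 2-fold in the same direction in 9 alternatives, as did 4 of 10 against Igfbp5-positive cells. Single libraries of pooled mice, caps on raw UMIs that act more in deep cells, and RNA from other cells limit every value.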

Other observations

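The IGF axis and the cytokine and defence list were also counted against suprabasal cells, where 11.2% of all genes were higher in control basal cells and 8.25% under P4, and 3.61% and 3.78% lower. In the IGF axis 2 of 6 genes were higher and Igfbp2 lower in control basal cells, and under P4 6 of 8 were higher and none lower. Cytokine and epithelial defence genes were higher in basal cells for 6 of 18 genes in the control and 10 of 15 under P4, with none and 2 lower. The P4 calls included the neutrophil genes S100a8 and S100a9, and Il1b and Lcn2. In P4 members, 84.1% of neutrophil marker UMIs and 84.0% of Il1b UMIs each lay in 20 cells. The part of such droplets in the count was not tested.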
